A study of Mus musculus with 4 samples.

Results

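The CC chemokine genes were examined in single cells of the mouse brain after a temporary stroke. The 10 genes Ccl2, Ccl3, Ccl4, Ccl5, Ccl6, Ccl7, Ccl9, Ccl11, Ccl12 and Ccl19 were taken by symbol from the 31053 genes counted, where they filled 11 rows because Ccl19 has a second copy. The 4 libraries compared were a sham operation, sampled at day 7 according to the series description, and transient occlusion of the middle cerebral artery (tMCAO) sampled at day 1, day 3 and day 7. All came from male mice, 8 weeks old, of the C57/BL6 strain, with no transgene or gene deletion named, and each held cells of the hemisphere on the operated side, freed with papain and cleared of myelin on Percoll. Each group was 1 library, and the number of mice in it is not given in the sources used here. So no test between groups was possible. Every interval below is a 95% interval that covers counting error only, without the spread between mice. The intervals of levels and ratios also leave out the spread between cells.

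CC chemokines are small secreted proteins that bind receptors on leukocytes and guide them toward their source. Ccl2, Ccl7 and Ccl12 act on Ccr2, which monocytes carry. Ccl3 and its close relative Ccl4 draw monocytes and T cells, and Ccl3 and Ccl5 act on Ccr1, a receptor of monocytes and other leukocytes. Ccl6 and Ccl9 are rodent chemokines of myeloid cells, Ccl11 (eotaxin) draws eosinophils through Ccr3, and Ccl19 guides T cells and dendritic cells through Ccr7. In the injured brain, microglia, macrophages of the brain borders, vessel wall cells and invading leukocytes can all make such signals, so the level of each gene was read in each kind of cell and on each day.

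Of the 10 genes, 9 lie on mouse chromosome 11 in 2 groups (coordinates in build GRCm38, GENCODE vM21). Ccl2 (ENSMUSG00000035385, chr11:82035571-82037453), Ccl7 (ENSMUSG00000035373, chr11:82045712-82047525), Ccl11 (ENSMUSG00000020676, chr11:82057823-82062955) and Ccl12 (ENSMUSG00000035352, chr11:82101845-82103400) span 67.8 kb, all on the plus strand. A gap of 1422 kb separates them from Ccl5 (ENSMUSG00000035042, chr11:83525778-83530518), Ccl9 (ENSMUSG00000019122, chr11:83572919-83578636), Ccl6 (ENSMUSG00000018927, chr11:83587882-83593087), Ccl3 (ENSMUSG00000000982, chr11:83647844-83649355) and Ccl4 (ENSMUSG00000018930, chr11:83662584-83664683), of which only Ccl4 is on the plus strand. Ccl19 (ENSMUSG00000071005, chr4:42754525-42756577) is on the minus strand of chromosome 4. Its second row (ENSMUSG00000094661) lies on a separate scaffold and held 0 UMIs in every library, and how reads that match both copies were counted is not given in the sources used here. Genes on the opposite strand overlap Ccl2, Ccl6 and Ccl19, and the strand setting of the counting is not given in the sources used here.

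Upstream sequences were matched in the RefSeq table (GRCm38.p6) for 5 of the 10 genes, Ccl3, Ccl6, Ccl9, Ccl12 and Ccl19. The 250 bases before the RefSeq start site are shown for 4 of them. These are Ccl3, with microglia-like cells as its main source in every library, Ccl12, whose main source differed between sham and the tMCAO libraries, and the neighbours Ccl6 and Ccl9, of which Ccl6 alone was found in neutrophil-like cells. The Ccl19 window overlaps the GENCODE gene model and is not printed. The sequences read 5′ to 3′ on the strand of the gene, in lower case, with matches to the motifs searched in capitals.
Ccl3, chr11:83649379-83649628, minus strand: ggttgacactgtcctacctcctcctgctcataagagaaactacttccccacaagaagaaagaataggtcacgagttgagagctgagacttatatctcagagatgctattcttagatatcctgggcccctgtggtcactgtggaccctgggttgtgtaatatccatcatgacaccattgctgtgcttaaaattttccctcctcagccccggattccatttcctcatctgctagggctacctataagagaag
Ccl6, chr11:83593088-83593337, minus strand: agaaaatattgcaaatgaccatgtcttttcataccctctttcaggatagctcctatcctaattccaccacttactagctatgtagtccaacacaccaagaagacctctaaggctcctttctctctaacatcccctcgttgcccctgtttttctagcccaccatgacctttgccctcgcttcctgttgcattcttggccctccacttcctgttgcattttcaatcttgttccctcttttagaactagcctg
Ccl9, chr11:83578637-83578886, minus strand: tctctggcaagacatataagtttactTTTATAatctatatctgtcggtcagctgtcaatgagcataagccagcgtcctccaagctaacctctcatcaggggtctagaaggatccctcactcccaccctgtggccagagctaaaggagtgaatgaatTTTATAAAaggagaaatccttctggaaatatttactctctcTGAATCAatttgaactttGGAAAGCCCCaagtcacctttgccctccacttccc
Ccl12, chr11:82101595-82101844, plus strand: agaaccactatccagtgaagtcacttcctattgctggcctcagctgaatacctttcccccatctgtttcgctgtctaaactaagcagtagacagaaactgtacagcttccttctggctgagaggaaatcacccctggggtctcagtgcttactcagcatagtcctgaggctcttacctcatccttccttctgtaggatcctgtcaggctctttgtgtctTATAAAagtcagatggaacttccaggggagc
The 3 motifs searched on both strands were the NF-kB consensus, the AP-1 motif TGANTCA and the TATA motif TATAAA. In the Ccl9 window the NF-kB match GGAAAGCCCC started at -35 on the opposite strand and the AP-1 match TGAATCA at -53 on the gene's strand. It also held the TATA motif at -224 and -94 on the opposite strand and at -92 on the gene's strand, the last pair overlapping. The Ccl12 window held TATAAA at -31. Of 32817 RefSeq windows of this length, 7.25% held the NF-kB consensus, 6.75% the AP-1 motif and 12.4% the TATA motif. These letters were not found in the windows of Ccl3, Ccl6 and Ccl19.

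Cell barcodes numbered 11744 in sham and 17780, 11983 and 17922 in the tMCAO libraries by day, with 69392755 to 104023002 UMIs, molecules counted at the 3′ end of a transcript. After the filter of the study (200 to 3000 genes and at most 10% mitochondrial UMIs), 7562, 13376, 9378 and 14044 cells remained, with a median of 2508 to 3732 UMIs. Any 2 libraries shared 33 to 88 barcodes. Each cell was put into a class by marker genes, none of them a chemokine, and 41762 of the 44360 cells (94.1%) received a class; the others are called cells without a class. Endothelial-like cells made up 50.4% to 64.8% of the cells, and neuron-like cells 0.313% to 3.64%. Levels are in CPM, the UMIs of a gene per 1000000 UMIs of all genes in the class and library.

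The 10 genes together were at 297 CPM in sham, 854 at day 1, 536 at day 3 and 289 at day 7 over the whole library. The day 1 library stood apart as the highest, and sham and day 7 were nearly level. Ccl2, Ccl3 and Ccl4 were at least 2-fold above sham at day 1 by the rule used throughout, a ratio of CPM with 10 CPM added to both sides and at least 20 UMIs in both libraries together. These 3 of 10 members stand beside 1.09% of all 16473 genes tested. No member was 2-fold lower, beside 0.941% of all genes. With 50 CPM added instead of 10, the day 1 call of Ccl2 ended. At day 3, Ccl3 and Ccl4 were past this rule, beside 0.615% of all genes, and none was lower, beside 0.195%. The day 3 call of Ccl3 ended with a mitochondrial limit of 5%, as a mean over cells and with 50 CPM added. At a fold of 3 both day 3 calls ended. At day 7 none of the 10 was 2-fold higher, beside 0.272% of all genes, and only Ccl7 was 2-fold lower, beside 0.297%. In all deposited cells, without the gene and mitochondrial limits, Ccl7 was at 15.9 CPM in sham and 5.56 at day 7. With 10 CPM added, its day 7 call ended there. The median log2 ratio of the 10 members was 0.82 at day 1, 0.34 at day 3 and 0.06 at day 7, against 0.02, 0.02 and 0.03 over all genes tested. A whole library sums all its cells, so a change in the number of cells of a class and a change in RNA per cell cannot be told apart there. Microglia-like cells made up 1.41% of the cells in sham, 2.91% at day 1, 3.32% at day 3 and 1.52% at day 7, and their part in the whole-library values was not tested.

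**Figure D1:**
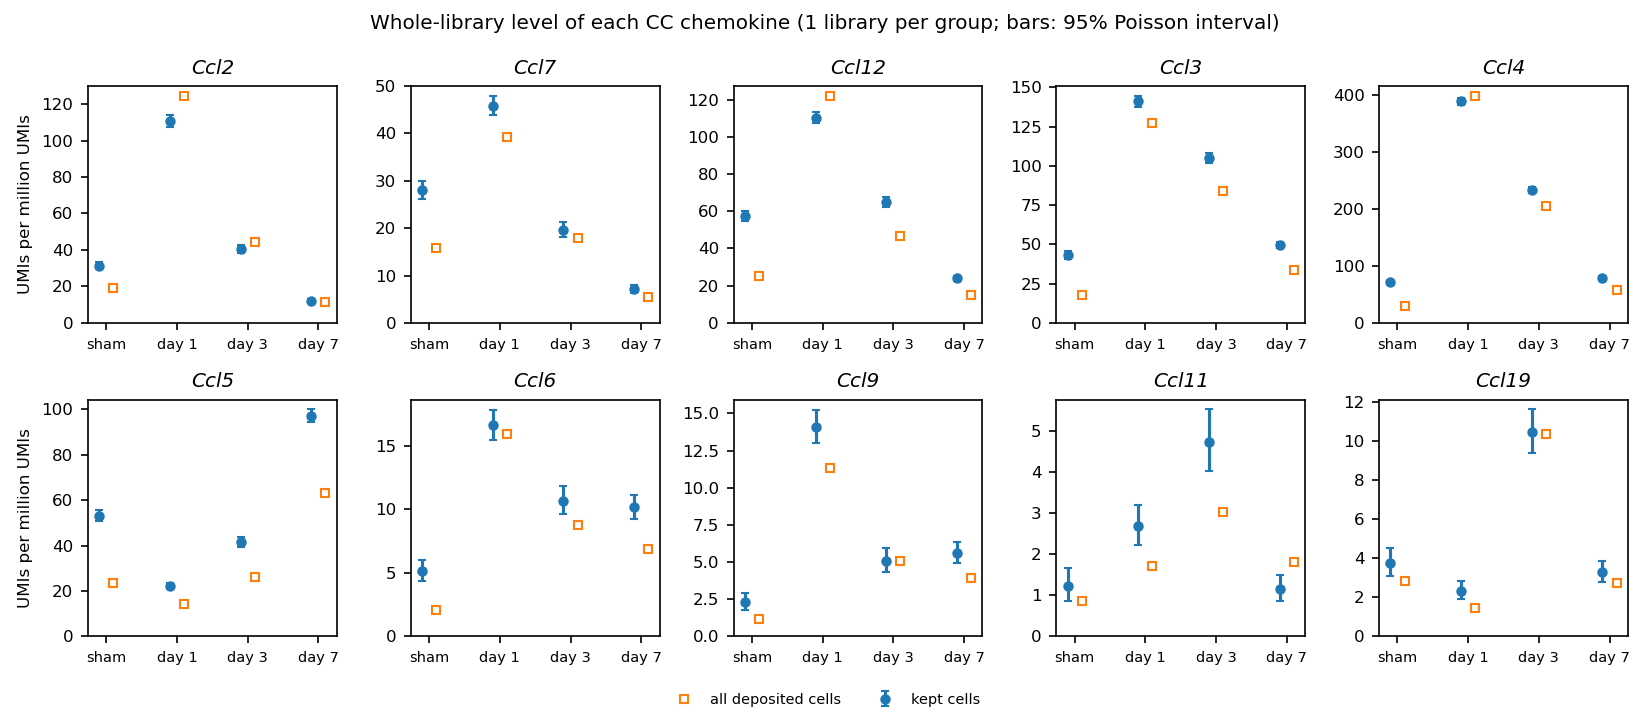
Whole-library level of each CC chemokine gene (CPM on a linear y axis from 0) by library (x axis), 1 library per group. Filled circles are the kept cells with 95% Poisson intervals as bars and open squares all deposited cells. In kept cells Ccl4 goes from 71.3 CPM in sham to 388 at day 1, whereas Ccl5 is lowest at day 1 (22.2 CPM) and highest at day 7 (97.1 CPM).

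Most of these transcripts lay in a small number of cells. Microglia-like cells held 32.9% of all UMIs of the 10 genes in sham, 65.2% at day 1, 69.9% at day 3 and 39.0% at day 7. Macrophage-like cells, border macrophage-like and monocyte-like cells together, held 36.1%, 11.2%, 8.54% and 11.3%, and T or NK-like cells 18.3%, 1.00%, 9.42% and 33.4%. Oligodendrocyte-like cells, which are not known for making these genes, held 0.0864% to 0.955%, and their level serves below as the background of free RNA and doublets. It was 1.41 CPM in sham, 32.3 at day 1, 11.2 at day 3 and 7.38 at day 7 for the 10 genes together, so the background was highest in the day 1 library. Among the 10 genes, microglia-like cells were the class with the most UMIs of 2 genes in sham, 4 at day 1, 6 at day 3 and 3 at day 7. Doublets called by Scrublet were 1.11%, 4.84%, 1.41% and 3.98% of the cells, also highest at day 1, and were kept.

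**Figure D2:**
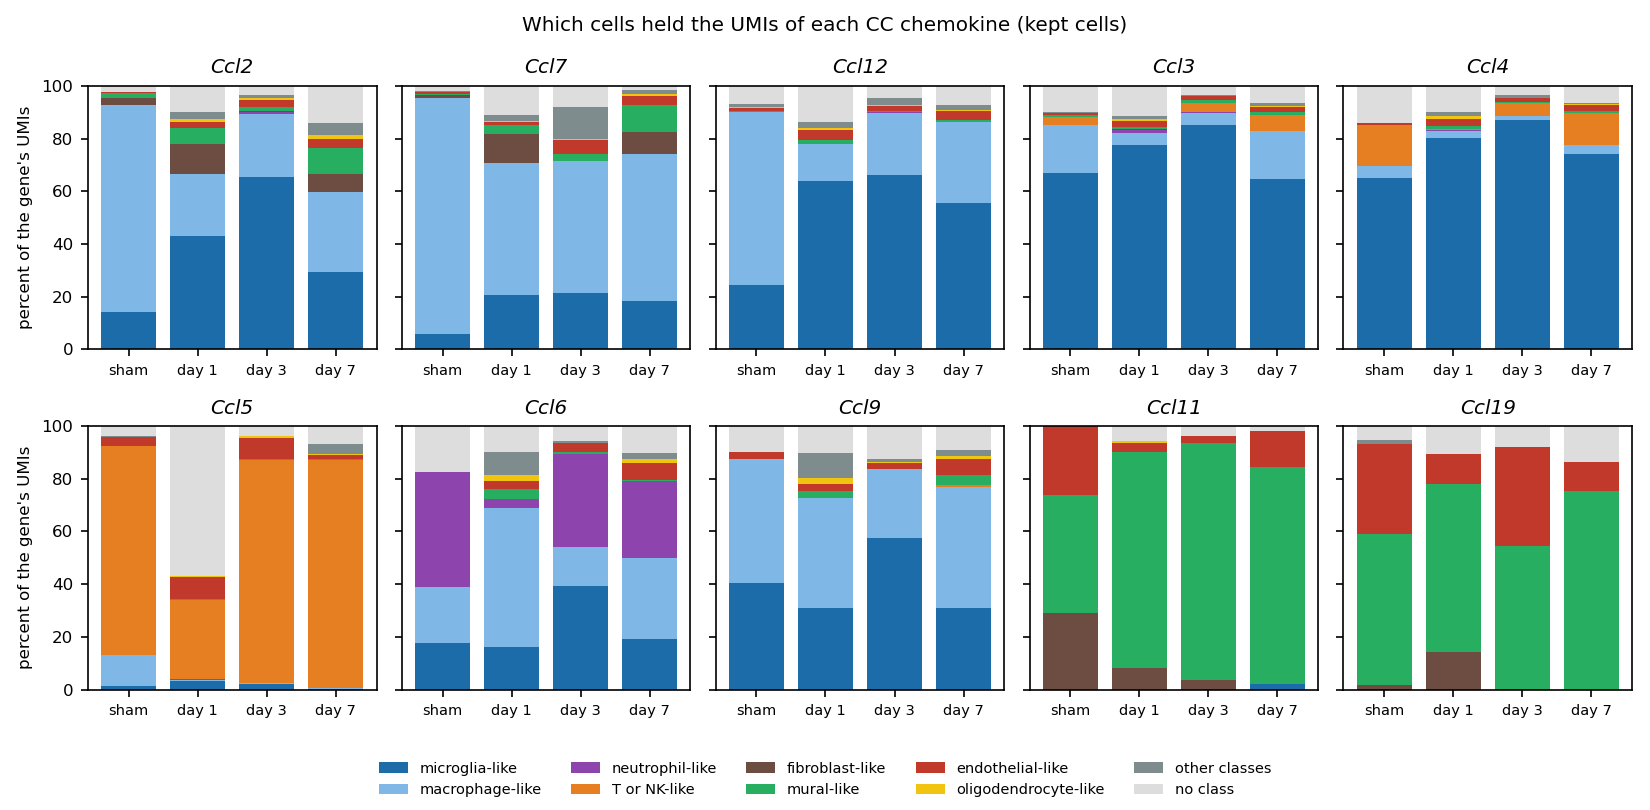
Share of the UMIs of each CC chemokine gene (percent, y axis) held by each cell class (colours) in each library (x axis), kept cells only. Ccl3 and Ccl4 are mostly microglia-like in all 4 libraries, Ccl5 is mostly T or NK-like except at day 1, and mural-like cells are the largest source of Ccl11 and Ccl19.

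Among the Ccr2 ligands, Ccl2 differed between the libraries in both its level and its main source. In the whole library it was at 31.4 CPM in sham, 110.7 at day 1, 40.7 at day 3 and 11.97 at day 7. Day 1 was the highest and day 7 the lowest, with ratios to sham of 3.52 (3.29 to 3.78), 1.3 (1.19 to 1.41) and 0.381 (0.343 to 0.424). In all deposited cells Ccl2 was at 18.9, 124, 44.6 and 11.5 CPM from sham to day 7. The order was the same there, but day 1 and day 3 stood further above sham, so the size of these ratios depended on the filter. Macrophage-like cells held 78.5% of its UMIs in sham, whereas microglia-like cells held the largest share at day 1 (42.9%) and day 3 (65.5%), and macrophage-like cells again at day 7 (30.7%).

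Within microglia-like cells Ccl2 was at 351 CPM in sham (19 of 107 cells with a UMI), 1109.7 at day 1 (189 of 389), 746 at day 3 (76 of 311) and 175 at day 7 (34 of 213). Both early libraries were above sham and the day 7 library was below it, with ratios of 3.16 (2.66 to 3.79), 2.13 (1.78 to 2.56) and 0.498 (0.394 to 0.631). Each cell was also thinned to 1000 UMIs, to even out depth, and shallower cells were left out. This left out 16 of 107 microglia-like cells in sham, 37 of 389 at day 1, 67 of 311 at day 3 and 32 of 213 at day 7. Of the thinned microglia-like cells, 10.99% had a Ccl2 UMI in sham, 30.4% at day 1, 20.9% at day 3 and 7.73% at day 7. The thinned share in oligodendrocyte-like cells was 0% in sham (0 of 749, which allows up to 0.401% by a limit of 3 counts), 0.499%, 0.245% and 0.0887%. Before thinning, microglia-like cells had a median of 2858, 4387, 2992 and 4008 UMIs and oligodendrocyte-like cells 7915, 4857, 6714 and 6396, so the class with the lower Ccl2 share was the deeper one in all 4 libraries.

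Border macrophage-like cells, named from Mrc1, Cd163, Lyve1 and related markers, had the highest Ccl2 level of the classes in sham, and it was not higher after tMCAO. It was 3884 CPM in sham (21 of 39 cells), 2821 at day 1 (55 of 67), 2845 at day 3 (14 of 27) and 1431 at day 7 (14 of 24). All 3 tMCAO libraries were below sham, with ratios of 0.726 (0.662 to 0.797), 0.733 (0.64 to 0.837) and 0.368 (0.303 to 0.445), and at day 3 a single cell held 51.8% of these UMIs. The thinned share of cells was 37.8% (14 of 37) in sham, 65.0% (39 of 60) at day 1, 34.6% at day 3 and 42.9% at day 7. The intervals of the sham share (22.5 to 55.2) and the day 1 share (51.6 to 76.9) overlapped narrowly. The border macrophage-like level was 11.1 times (9.23 to 13.4) that of microglia-like cells in sham and 2.54 times (2.36 to 2.73) at day 1.

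Ccl2 was also present in stromal cells at day 1. Fibroblast-like cells were at 181 CPM in sham (3 of 31 cells), 1096 at day 1 (28 of 124), 14.8 at day 3 (2 of 41) and 352 at day 7 (2 of 29), and the ratio of day 1 to sham was 6.07 (4.15 to 9.22). Pericyte-like cells were at 12.1, 179.9, 9.09 and 5.79 CPM, 14.9-fold (8.36 to 29.3) higher at day 1. Smooth muscle-like cells were at 1.04, 13.1, 0.435 and 4.49 CPM, so within the vessel wall the day 1 level was 13.7 times (9.67 to 20.01) higher in pericyte-like than in smooth muscle-like cells. In endothelial-like cells Ccl2 was at 0.309, 7.07, 2.37 and 0.828 CPM. That was close to the background in oligodendrocyte-like cells, at 0, 4.64, 1.70 and 1.01 CPM, and the day 1 ratio of endothelial-like to oligodendrocyte-like cells was 1.52 (1.09 to 2.15). The 87 endothelial-like cells with a Ccl2 UMI at day 1 were called doublets in 14.9% of cases, against 1.62% of those without, and carried 0.632 microglia markers per cell against 0.156. The part of doublets and free RNA in the endothelial value was not tested.

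Ccl7, the neighbour of Ccl2 that acts on Ccr1, Ccr2 and Ccr3, was mainly a macrophage-like transcript. Whole-library levels were 28.0 CPM in sham, 45.9 at day 1, 19.7 at day 3 and 7.18 at day 7, with ratios of 1.64 (1.51 to 1.77), 0.702 (0.633 to 0.778) and 0.256 (0.225 to 0.291). In all deposited cells they were 15.9, 39.2, 17.9 and 5.56 CPM, so day 3 was not below sham there. The day 3 direction thus depended on the filter. Macrophage-like cells held 89.8% of its UMIs in sham and remained the largest source at 49.9%, 49.8% and 55.6% after tMCAO. In border macrophage-like cells it was at 4012, 2544, 2864 and 1989.7 CPM, lower than sham in all 3 tMCAO libraries. In microglia-like cells it was at 127, 223, 119 and 66.1 CPM, and the ratios to sham were 1.75 (1.31 to 2.4), 0.935 (0.673 to 1.32) and 0.52 (0.351 to 0.774). The day 3 interval includes 1, so sham and day 3 did not differ beyond counting error. A single cell held 66.0% of the sham and 72.9% of the day 7 UMIs of Ccl7 in microglia-like cells. Ccl7 passed the 2-fold rule in this class at day 1 without the cell with the most UMIs in each library, as a mean over cells and with classes from clusters, and at day 3 with classes from clusters. Fibroblast-like cells were at 64.5 CPM in sham (10 UMIs in 1 cell), 447 at day 1 (227 UMIs in 17 cells), 0 at day 3 and 272 at day 7 (2 cells), and the day 1 ratio was 6.93 (3.7 to 14.6).

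Ccl2 and Ccl7 were often found in the same cells. In thinned border macrophage-like cells, those with a Ccl2 UMI also had a Ccl7 UMI in 13 of 14 cells in sham, 32 of 39 at day 1, 7 of 9 at day 3 and 6 of 9 at day 7. Among cells without Ccl2 the counts were 10 of 23, 8 of 21, 4 of 17 and 5 of 12. The intervals of both shares were apart in sham and at day 1 and overlapped at day 3 and day 7. In day 1 fibroblast-like cells Ccl7 was found in 9 of the 17 cells with Ccl2 and in 2 of the 101 without. Cells of 1 library share its background.

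Ccl12, another Ccr2 ligand of the mouse, was found in both microglia-like and border macrophage-like cells of every library. The whole library was at 57.6 CPM in sham, 110.3 at day 1, 64.7 at day 3 and 23.9 at day 7, and the ratios were 1.92 (1.81 to 2.02), 1.12 (1.06 to 1.2) and 0.416 (0.385 to 0.449). In all deposited cells Ccl12 was at 25.1, 122, 46.8 and 15.2 CPM from sham to day 7. Day 1 and day 3 stood further above sham there, so the size of these ratios depended on the filter. Ccl12 passed the 2-fold rule at day 1 in all deposited cells and with a limit of 6000 genes per cell. Microglia-like cells were at 1118, 1646, 1199 and 663 CPM, with ratios of 1.47 (1.33 to 1.63), 1.07 (0.963 to 1.2) and 0.593 (0.523 to 0.673). Day 1 was the highest, sham and day 3 did not differ beyond counting error, and day 7 was the lowest. The thinned share of microglia-like cells with Ccl12 followed the same order at 35.2%, 47.7%, 35.7% and 29.3%. Border macrophage-like cells were at 6008 CPM in sham, 1609 at day 1, 4724 at day 3 and 3678 at day 7. Here day 1 was the lowest library, at a ratio of 0.268 (0.243 to 0.295), while the thinned share of cells was 62.2%, 56.7%, 65.4% and 47.6%, with intervals that overlap in all 4 libraries. The class with the most Ccl12 UMIs went from macrophage-like in sham (65.5%) to microglia-like at day 1 (63.9%), day 3 (66.2%) and day 7 (55.4%).

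**Figure D3:**
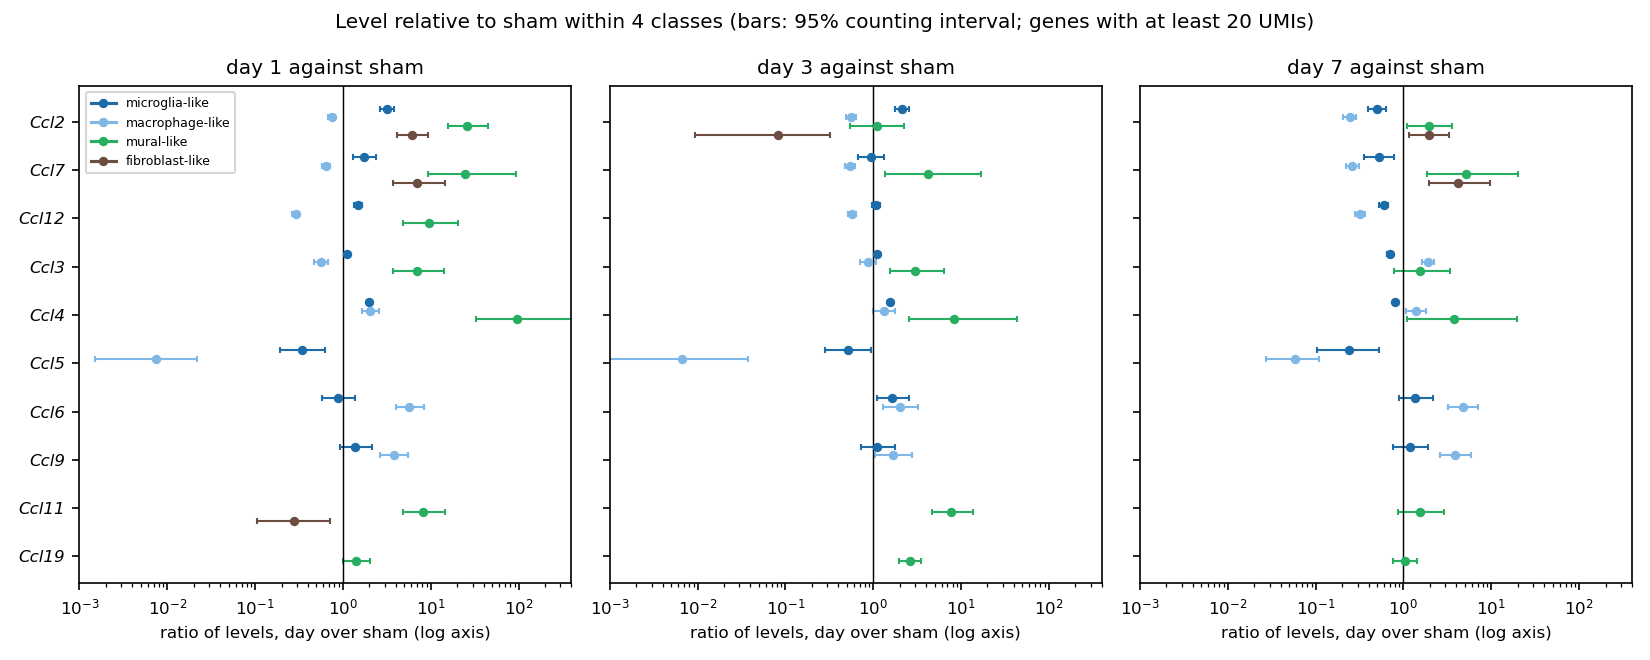
Ratio of CPM to sham (log x axis, the line at 1 is level with sham) of each CC chemokine gene (y axis) at day 1, day 3 and day 7 (panels) within 4 classes (colours), with 95% counting intervals as bars, for genes with at least 20 UMIs in both libraries together and at least 1 in each. For Ccl2 at day 1 the microglia-like ratio of 3.16 lies above 1 and the macrophage-like ratio of 0.75 below it.

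The related chemokines Ccl3 and Ccl4 had the largest microglia-like share of the 10 genes in every library. Ccl4 was at 71.3 CPM in the whole sham library, 388 at day 1, 234 at day 3 and 79.4 at day 7, with ratios of 5.45 (5.21 to 5.69), 3.28 (3.13 to 3.44) and 1.11 (1.06 to 1.18). Ccl3 was at 43.2, 141, 105.0 and 49.6 CPM, with ratios of 3.27 (3.08 to 3.47), 2.43 (2.28 to 2.59) and 1.15 (1.07 to 1.23). Both were in the order day 1, day 3, day 7 and sham, and no interval of a ratio between neighbours in that order included 1. In all deposited cells Ccl4 was at 29.0, 397, 204 and 57.7 CPM from sham to day 7, and Ccl3 at 17.9, 127, 84.2 and 33.7 CPM. The order was the same there, but each tMCAO library stood further above sham, so the size of these ratios depended on the filter. Microglia-like cells held 64.9%, 80.4%, 87.2% and 74.1% of the Ccl4 UMIs and 66.8%, 77.7%, 85.2% and 64.7% of the Ccl3 UMIs.

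Inside microglia-like cells the differences from sham were smaller at day 1 and day 3. At day 7 the CPM of both genes was below sham instead of above it. The thinned share of cells with a UMI, given below, was not lower at day 7 than in sham. Ccl4 was at 3665 CPM in sham (46 of 107 cells), 7287 at day 1 (261 of 389), 5697 at day 3 (146 of 311) and 2941 at day 7 (111 of 213). The ratios were 1.99 (1.88 to 2.1), 1.55 (1.47 to 1.65) and 0.802 (0.752 to 0.856). Ccl3 was at 2285, 2560.5, 2502 and 1602 CPM, and the ratios were 1.12 (1.04 to 1.2), 1.1 (1.02 to 1.18) and 0.701 (0.645 to 0.763). So per UMI of the class Ccl3 was nearly level between sham, day 1 and day 3, and neither gene passed the 2-fold rule within this class. The ratio of day 3 to day 1 for Ccl3 was 0.977 (0.934 to 1.02), which includes 1. In sham, 1 cell held 26.2% of the Ccl4 and 18.5% of the Ccl3 UMIs of the class. For Ccl4 this is more than the difference between the sham and day 7 levels, so its day 7 direction rests on that cell.

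More of the microglia-like cells had these genes at day 1, while the intervals at day 3 and day 7 overlapped those of sham. At 1000 UMIs per cell, Ccl4 was found in 36.3% (26.4 to 47.0) in sham, 61.9% (56.6 to 67.0) at day 1, 51.6% (45.2 to 58.1) at day 3 and 43.1% (35.8 to 50.6) at day 7. The share for Ccl3 was 34.1%, 54.0%, 48.0% and 40.9%. In oligodendrocyte-like cells the share for Ccl4 was 0% in sham, 1.63%, 0.858% and 0% at day 7. By a limit of 3 counts, 0 of 749 cells in sham allows up to 0.401% and 0 of 1128 at day 7 up to 0.266%. The genes went together within cells. Of the microglia-like cells with a Ccl3 UMI, 74.2%, 93.2%, 81.2% and 75.7% also had Ccl4, against 16.7%, 25.3%, 24.4% and 20.6% of those without Ccl3. Day 1 cells with Ccl2 had Ccl4 in 86.9% (93 of 107) and those without Ccl2 in 51.0% (125 of 245). Counting all 10 genes, 4 or more were found in 14.3% of the thinned microglia-like cells in sham, 20.5% at day 1, 12.7% at day 3 and 8.29% at day 7, and none in 33.0%, 18.5%, 25.8% and 29.8%.

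**Figure D4:**
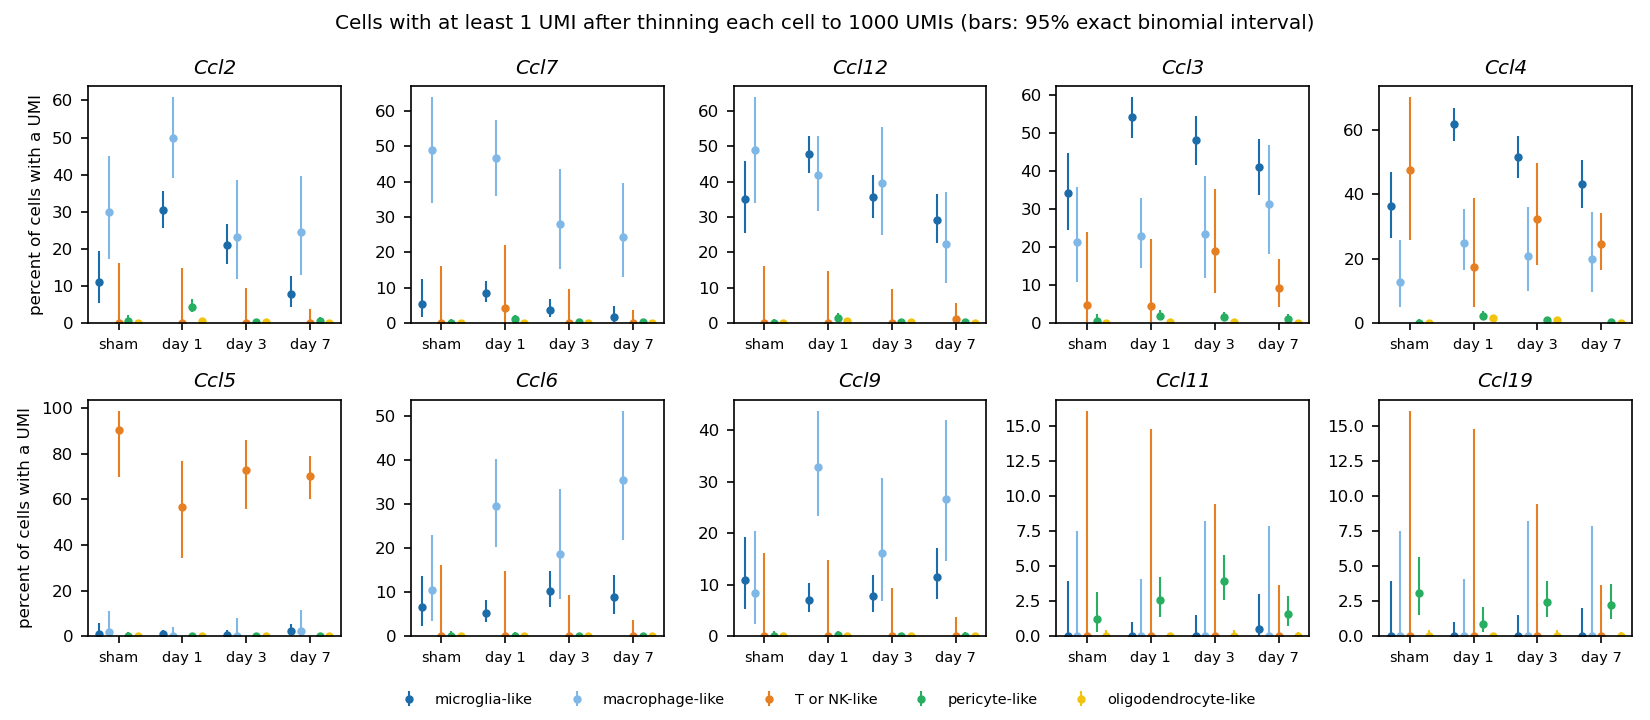
Share of cells (percent, y axis) with at least 1 UMI of each CC chemokine gene in each library (x axis) after thinning every cell to 1000 UMIs, for 5 classes (colours), with exact 95% binomial intervals as bars. In microglia-like cells Ccl4 goes from 36.3% in sham to 61.9% at day 1, while its share in oligodendrocyte-like cells is 1.63% or less.

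Outside microglia, Ccl3 and Ccl4 each had a second source on certain days. Border macrophage-like cells had Ccl3 at 1192 CPM in sham, 682 at day 1, 1409 at day 3 and 4494 at day 7, where 17 of 24 cells had a UMI and 1 cell held 30.1% of them. Day 7 was the highest, at a ratio of 3.77 (3.2 to 4.45), and the thinned share was 27.03% in sham (10 of 37 cells) and 66.7% at day 7 (14 of 21). Ccl4 in these cells was at 317, 915, 691 and 1151 CPM, above sham in each tMCAO library, with ratios of 2.88 (2.2 to 3.84), 2.18 (1.53 to 3.1) and 3.63 (2.62 to 5.06). Neutrophil-like cells had Ccl3 at 16.6, 1405, 24.98 and 13.3 CPM and Ccl4 at 82.8, 1578, 0 and 13.3 CPM. The day 1 values rest on 81 UMIs in 14 of 37 cells for Ccl3 and 91 UMIs in 12 cells for Ccl4, and the other libraries had 1 to 8 and 0 to 5 UMIs. Neutrophil-like cells had a median of 1309 UMIs at day 1 and 3072 to 5549 in the other libraries. T or NK-like cells had Ccl4 at 3209, 1144, 2117 and 950 CPM, highest in sham, in 14 of 21, 6 of 23, 19 of 38 and 42 of 98 cells.

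**Figure D5:**
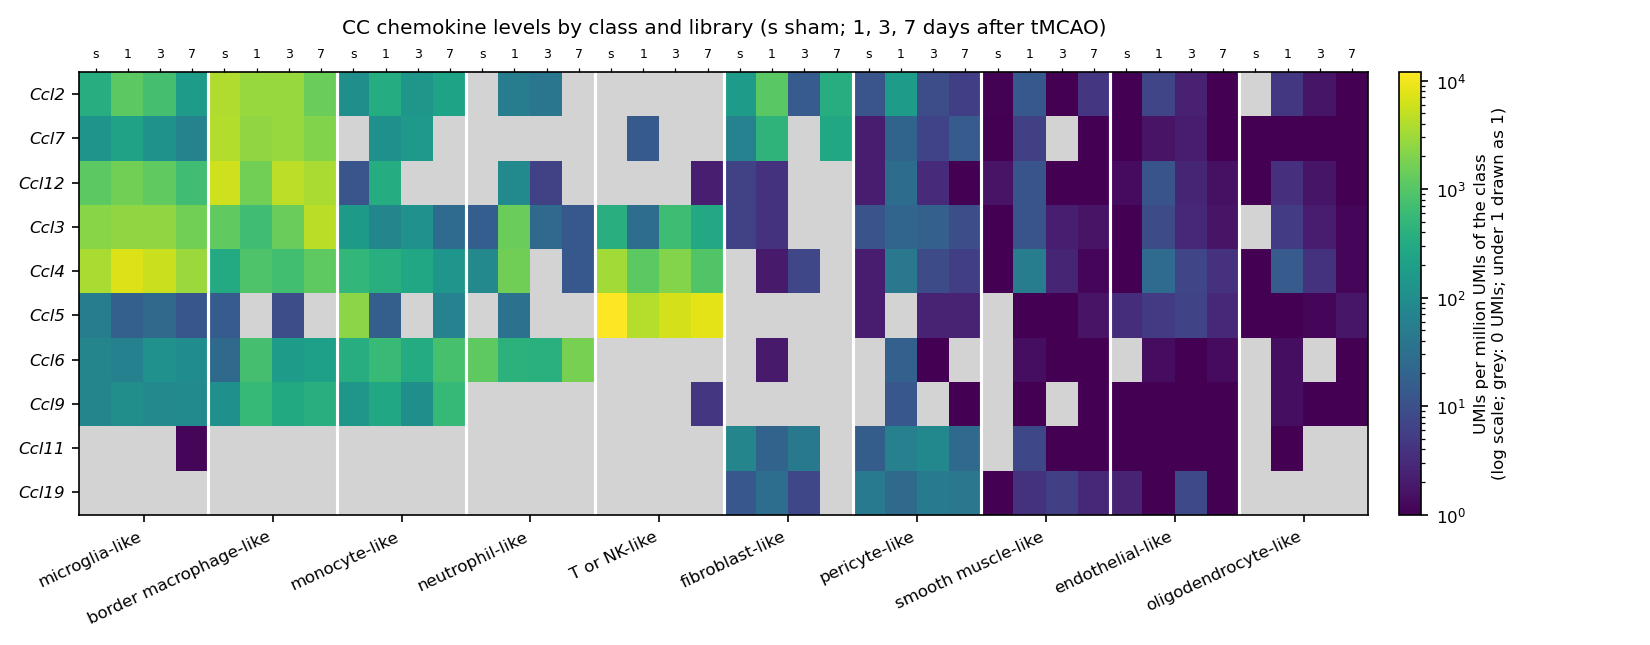
Level of each CC chemokine gene (rows; CPM, colour on a log scale, grey for 0 UMIs, values under 1 drawn as 1) by cell class and, within each class, by library (columns, sham then day 1, 3 and 7). Microglia-like cells are highest in Ccl4 (7287 CPM at day 1), border macrophage-like cells in Ccl12 (6008 CPM in sham), and T or NK-like cells in Ccl5 (12292 CPM in sham).

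Within microglia-like cells, 8 of the 10 members had enough UMIs to be compared. At day 1 Ccl2 was at least 2-fold higher, beside 8.59% of all genes, and Ccl5 2-fold lower, beside 6.94%. Ccl4, at a ratio of 1.99, lay just under the rule and passed it with doublets left out, with the stricter marker rule, with levels rescaled to the median gene, as a mean over cells and without the cell with the most UMIs in each library. At day 3 Ccl2 alone was higher, beside 3.53% of all genes, and none was lower, beside 1.45%. The day 3 call of Ccl2 ended with a mitochondrial limit of 5%, with 50 CPM added and at a fold of 3. At day 7 none was higher, beside 3.5%, and Ccl5 was lower, beside 1.65%. The median log2 ratio of the members was 0.49, 0.13 and -0.63, against -0.07, 0.04 and 0.04 over all genes. Shares of 1 in 8 are near the day 1 share over all genes. The Ccl5 call rests on 20 UMIs in sham, 90.0% of them in 1 cell, and without the cell with the most UMIs in each library the log2 ratio was 0.42 at day 1 and 0.24 at day 7, above sham instead of below it.

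In endothelial-like cells, Ccl4 was the only member at least 2-fold higher at day 1, of 8 tested, beside 0.737% of all genes. At day 3 and day 7 none of 7 was, beside 0.839% and 0.256%. Ccl4 in this class was at 0.742, 26.9, 7.18 and 3.79 CPM and in oligodendrocyte-like cells at 0.529, 14.7, 3.98 and 1.16 CPM, so it was higher at day 1 in both, and the ratio of the first to the second at day 1 was 1.83 (1.53 to 2.2). Endothelial-like cells with a Ccl4 UMI at day 1 were called doublets in 6.76% of 281 cells, against 1.58% of those without, and the part of this in the call was not tested. Mural-like cells are the pericyte-like and smooth muscle-like cells and the cells with equal numbers of both marker sets. Pericyte-like cells were 367 of the 1119 in sham, 749 of 1509 at day 1, 736 of 1594 at day 3 and 719 of 2305 at day 7. The part of this make-up in the mural-like calls was not tested. Mural-like cells had 5 of 8 tested members at least 2-fold higher at day 1, Ccl2, Ccl4, Ccl7, Ccl11 and Ccl12, beside 1.27% of all genes. For Ccl4 a single cell held 45.6% of these UMIs, and for Ccl7 38.6%. Ccl4 and Ccl12 at 48.9 and 15.9 CPM stood 3.32 times (2.7 to 4.1) and 4.54 times (3.02 to 6.89) above oligodendrocyte-like cells. The Ccl12 call ended with the oligodendrocyte-like level subtracted, with doublets left out and with classes from clusters, and the Ccl7 call without the cell with the most UMIs. As a mean over cells only Ccl2 and Ccl4 passed. At day 3 only Ccl11 of 6 tested was past the rule, beside 0.263% of all genes, and at day 7 none of 6, beside 0.37%.

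Ccl5, a ligand of Ccr1 that cytotoxic lymphocytes store and release, was a T or NK-like transcript with a course of its own. The whole library was at 53.2 CPM in sham, 22.2 at day 1, 41.7 at day 3 and 97.1 at day 7. Day 1 was the lowest and day 7 the highest, with ratios of 0.418 (0.386 to 0.452), 0.783 (0.729 to 0.842) and 1.83 (1.72 to 1.93). In all deposited cells Ccl5 was at 23.7, 14.2, 26.0 and 63.2 CPM from sham to day 7. Day 1 was again the lowest and day 7 the highest, but day 3 was not below sham. Ccl5 also passed the 2-fold rule at day 7 there. T or NK-like cells numbered 21, 23, 38 and 98, and within them Ccl5 was at 12292, 4292, 6443 and 8222 CPM, below sham in each tMCAO library, with ratios of 0.349 (0.307 to 0.396), 0.524 (0.484 to 0.567) and 0.669 (0.628 to 0.713). So the day 7 library had the highest whole-library level and the most T or NK-like cells, while the level within these cells was below sham. The thinned share of these cells with a UMI was 90.5%, 56.5%, 73.0% and 70.4%. They held 79.3% of all Ccl5 UMIs in sham, 84.8% at day 3 and 86.6% at day 7 but 30.2% at day 1, where 56.8% lay in cells without a class. In that library 3 cells with too few markers for a class held 552 UMIs, the highest 284, and had at most 1 T or NK marker. In sham, 195 of the 198 Ccl5 UMIs of macrophage-like cells lay in 1 monocyte-like cell.

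Ccl6 and Ccl9 sit side by side and were both myeloid, but Ccl6 alone was found in neutrophil-like cells. Whole-library Ccl6 was at 5.14 CPM in sham, 16.6 at day 1, 10.7 at day 3 and 10.2 at day 7, with ratios of 3.24 (2.73 to 3.87), 2.08 (1.72 to 2.52) and 1.98 (1.65 to 2.38). Day 3 and day 7 did not differ beyond counting error, with a ratio of 0.95 (0.826 to 1.09). Ccl9 was at 2.31, 14.1, 5.09 and 5.63 CPM, with ratios of 6.1 (4.78 to 7.9), 2.2 (1.66 to 2.94) and 2.44 (1.87 to 3.21), and its day 3 and day 7 values also did not differ beyond counting error. With 10 CPM added, both stayed under the 2-fold rule on every day. At day 1 Ccl6 passed it with a limit of 6000 genes per cell and with all deposited cells, Ccl9 with doublets left out, and both with 1 CPM added, where Ccl9 also passed at day 7.

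In neutrophil-like cells Ccl6 was at 1159 CPM in sham (13 of 15 cells), 416 at day 1 (9 of 37), 393 at day 3 (38 of 52) and 1755 at day 7 (20 of 22). It was lower than sham at day 1 and day 3, at 0.359 (0.216 to 0.578) and 0.34 (0.252 to 0.462), and higher at day 7, at 1.51 (1.13 to 2.05). Ccl9 had 0 UMIs in these cells in all 4 libraries. In border macrophage-like cells both genes were higher after tMCAO. Ccl6 went from 25.6 CPM (5 UMIs) in sham to 745 at day 1, 175 at day 3 and 201 at day 7, and the ratios were 29.1 (12.3 to 90.3), 6.84 (2.47 to 23.4) and 7.86 (2.81 to 27.1). Ccl9 was at 113, 539.7, 304 and 380.1 CPM in these cells, with ratios of 4.79 (3.09 to 7.81), 2.7 (1.53 to 4.86) and 3.38 (1.92 to 6.06). Monocyte-like cells, which numbered 10, 28, 17 and 24, had Ccl6 at 349.6, 577, 328 and 793 CPM and Ccl9 at 145, 283, 106 and 531 CPM. In microglia-like cells the levels were 71.2, 63.0, 117 and 97.5 CPM for Ccl6 and 73.7, 102, 82.0 and 87.4 CPM for Ccl9. Among these, the day 3 value of Ccl6 alone differed from sham beyond counting error, at 1.65 (1.09 to 2.57). So within myeloid cells the higher day 1 levels of the pair were on the macrophage side.

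Ccl11 and Ccl19 were the stromal pair, with 0 UMIs of Ccl19 in microglia-like, macrophage-like, neutrophil-like and T or NK-like cells of every library and 1 UMI of Ccl11 among them. Ccl11 was at 1.22 CPM in the whole sham library, 2.67 at day 1, 4.73 at day 3 and 1.14 at day 7, with ratios of 2.19 (1.51 to 3.24), 3.88 (2.71 to 5.68) and 0.938 (0.604 to 1.47). Mural-like cells held 44.7%, 81.8%, 89.9% and 82.4% of its UMIs. Within pericyte-like cells it was at 16.1 CPM in sham (9 of 367 cells), 59.96 at day 1 (22 of 749), 81.2 at day 3 (41 of 736) and 25.1 at day 7 (17 of 719). Day 3 was the highest, with ratios of 3.72 (2.15 to 6.84), 5.04 (2.99 to 9.08) and 1.56 (0.85 to 2.98), and a single cell held 38.2% of the day 1 and 31.3% of the day 3 UMIs. Fibroblast-like cells were at 70.9, 19.7, 44.4 and 0 CPM, from 11, 10, 6 and 0 UMIs. Smooth muscle-like cells had 0, 22, 2 and 1 UMIs, all 22 at day 1 in 1 cell.

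Ccl19 was at 3.76 CPM in the whole sham library, 2.32 at day 1, 10.4 at day 3 and 3.30 at day 7. Day 3 was the highest, with ratios of 0.618 (0.47 to 0.811), 2.78 (2.25 to 3.46) and 0.878 (0.684 to 1.13), and sham and day 7 did not differ beyond counting error. Pericyte-like cells were at 49.3, 25.2, 50.3 and 41.1 CPM, so day 3 was level with sham there at a ratio of 1.02 (0.708 to 1.48). Mural-like cells as a whole were at 11.3, 15.9, 29.5 and 11.7 CPM, a day 3 ratio of 2.62 (1.97 to 3.51). Pericyte-like cells were 367 of the 1119 mural-like cells in sham and 736 of 1594 at day 3. At day 3, 51 mural-like cells had a Ccl19 UMI, 29 of them pericyte-like and 15 smooth muscle-like. The part of the make-up of the class in this ratio was not tested. Endothelial-like cells were at 2.47 CPM in sham (25 cells with a UMI), 0.707 at day 1 (12), 7.97 at day 3 (74) and 0.697 at day 7 (16), a day 3 ratio of 3.23 (2.25 to 4.72), while oligodendrocyte-like cells had 0 UMIs in all 4 libraries. Smooth muscle-like cells were at 0.626, 3.89, 5.87 and 2.83 CPM. Pericyte-like cells of the sham library with a Ccl19 UMI carried more fibroblast markers than those without, 2.21 against 0.649 per cell. They also carried more smooth muscle markers (3.37 against 1.98) and fewer pericyte markers (6.05 against 6.97). Their depth was higher, with a median of 3901 against 2578 UMIs. At day 3 the cells with a UMI had 3.90 against 1.55 smooth muscle markers and 1.79 against 0.552 fibroblast markers. Ccl11 and Ccl19 were found in the same pericyte-like cell after thinning in 7 cells at day 3, of 26 with Ccl11, and in none in sham (4 with Ccl11), at day 1 (14) and at day 7 (10). Among pericyte-like cells without Ccl11 the thinned Ccl19 share was 3.15%, 0.942%, 1.44% and 2.27%.

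The receptors and the other CC ligands were read as 2 fixed lists. Of 14 receptors, 9 had enough UMIs in the whole library at day 1 and 8 at day 3 and day 7, and of 11 further ligands 7, 5 and 7 did. At day 1, 0 receptors and 1 ligand were at least 2-fold higher, beside 1.09% of all genes. The ligand was Ccl8, which acts on Ccr2 and other receptors, at 2.02 CPM in sham and 17.6 at day 1, a ratio of 8.71 (6.73 to 11.4). In macrophage-like cells Ccl8 was at 201, 1201, 1361 and 20.7 CPM, so it was above sham at day 1 and day 3 and below it at day 7. At day 3, 1 receptor and 0 ligands were higher, beside 0.615% of all genes, and at day 7 none of either list, beside 0.272%; no gene of either list was lower in the whole library on any day. That receptor was Ackr1, an atypical receptor of venous endothelium that binds many chemokines without signalling. Endothelial-like cells had it at 11.8 CPM in sham, 38.5 at day 1, 672 at day 3 and 26.0 at day 7, and the day 3 ratio was 57.0 (49.4 to 66.1).

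Receptors of the members also differed within myeloid classes. Ccr2, the receptor of Ccl2, Ccl7 and Ccl12, was at 86.2 CPM in macrophage-like cells of sham, 95.9 at day 1, 249.7 at day 3 and 388 at day 7, with day 3 and day 7 ratios of 2.9 (1.76 to 4.91) and 4.5 (2.85 to 7.38). Monocytes are known to carry this receptor, and monocyte-like cells were 10 of the 49 macrophage-like cells in sham, 28 of 95 at day 1, 17 of 44 at day 3 and 24 of 48 at day 7. The part of this make-up in the Ccr2 ratios was not tested. Ccr1 in microglia-like cells was at 35.6 CPM in sham, 30.5 at day 1, 5.86 at day 3 and 8.96 at day 7, from 14, 59, 7 and 8 UMIs, at 0.856 (0.472 to 1.66), 0.165 (0.0563 to 0.436) and 0.252 (0.0916 to 0.643) of sham. Of the 3 receptors tested in this class, 0 were 2-fold lower at day 1, beside 6.94% of all genes, and Ccr1 alone was at day 3 and day 7, beside 1.45% and 1.65%. Ccrl2, a receptor-like protein of neutrophils, was at 132, 711, 203 and 505 CPM in neutrophil-like cells of sham, day 1, day 3 and day 7, from 8, 41, 65 and 38 UMIs, with ratios of 5.37 (2.49 to 13.3), 1.53 (0.734 to 3.7) and 3.82 (1.75 to 9.47). Ccr1 in the same class was at 447, 312, 215 and 452 CPM, from 27, 18, 69 and 34 UMIs, and was lower than sham beyond counting error only at day 3, at 0.482 (0.305 to 0.783). Ccl24 in macrophage-like cells was at 528, 537, 377 and 215 CPM, with ratios of 1.02 (0.833 to 1.25), 0.714 (0.537 to 0.943) and 0.407 (0.291 to 0.562). Ccl1 in T or NK-like cells rested on 19 UMIs in sham, 0 at day 1 and day 3, and 3 at day 7.

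The genes whose levels ran most like each member were sought over 32 pairs of class and library with at least 50 cells, among 6277 genes, by Pearson's correlation of log2(CPM + 10). The pairs share libraries and depth, so these values describe the pattern only. Ccl3 and Ccl4 were both most like Bcl2a1b (r = 0.992 and 0.98), followed by Cd86 (0.984) for Ccl3 and Irf8 (0.976) for Ccl4. Ccl12 was most like Aif1 (0.992) and C3ar1 (0.989), and Ccl9 most like Ms4a6d (0.991) and Ms4a6c (0.984). Ccl2 and Ccl7 were both most like Cxcl16 (0.93 and 0.916) and Rab3il1 (0.876 and 0.862), Ccl6 like Lyz2 (0.977) and Clec4a2 (0.974), and Ccl5 like Icos (0.973) and Klrd1 (0.971). Ccl11 and Ccl19 were both most like Pla1a (0.929 and 0.933), followed by Col3a1 (0.881) and Emilin1 (0.928). Lyz2, Klrd1, Ms4a6c and Col3a1 were also markers of a class. Among the members the pairs with the highest r were Ccl3 with Ccl4 (0.979), Ccl2 with Ccl7 (0.957), Ccl9 with Ccl12 (0.956), Ccl3 with Ccl12 (0.934), Ccl4 with Ccl12 (0.908) and Ccl11 with Ccl19 (0.902).

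The limit of 3000 genes per cell bears on the sham levels. Cells above it, 2856, 3452, 1964 and 2647 in number, held 24.8%, 55.2%, 42.0% and 27.4% of the UMIs of the 10 genes and 56.2%, 54.8%, 49.0% and 43.6% of all UMIs. With all deposited barcodes, which also bring back those below the gene minimum or above the mitochondrial limit, the 10 genes were at 137 CPM in sham, 854 at day 1, 451 at day 3 and 202 at day 7. Sham and day 7, nearly level in the kept cells, then differed. In the cells above the limit Ccl12 was at 8.96, 132, 31.4 and 6.95 CPM from sham to day 7. In the same order Ccl6 was at 0.589, 15.8, 7.09 and 3.97 CPM and Ccl9 at 0.648, 9.16, 5.03 and 2.39 CPM. Ccl11 was at 0.786, 0.983, 1.53 and 2.8 CPM and Ccl19 at 2.69, 0.772, 10.8 and 2.45 CPM. The limit also set the number of microglia-like cells, since 1, 137, 33 and 9 more of them lay above it.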

How the data were processed

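Single-cell RNA (10x Genomics, 3′ libraries) was measured in 4 mouse brain libraries, 1 per group. The authors deposited raw UMI counts per gene and cell barcode, 1 matrix per library. File headers name Cell Ranger 4.0.0 and the submitters' processing notes Cell Ranger 3.0.1 and Seurat 4.1.2. The human build these notes name does not match the mouse gene identifiers, of which 31011 of 31053 (99.9%) were found in GENCODE vM21. Total counts were 69392755 to 104023002 UMIs per library.

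The filter followed the study's methods (between 200 and 3000 genes per cell, mitochondrial share no higher than 10%) and left 44360 of 59429 barcodes. The cell number the study states lies between these values. Cells took the class with the most distinct markers, at least 3 and leading the best class of another lineage by 2. Of the 44360 cells, 1563 lay at that lead and 1246 just under it. Classes were rebuilt here, so shares can differ from the study's for that reason alone. Doublets were called with Scrublet in all deposited cells and kept.

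Levels were summed UMIs in CPM with exact Poisson intervals, ratios had exact conditional intervals and shares exact Clopper-Pearson intervals, all 95% and for counting error only. UMIs of cells without replicate libraries allow no test. A gene was called at a 2-fold ratio with 10 CPM added and at least 20 UMIs in both libraries together. Shares used cells thinned to 1000 UMIs, leaving out shallower cells. Scripts were tested on simulated data and run in Python 3.11.15 with numpy 2.4.6, scipy 1.17.1, pandas 2.3.3 and scanpy 1.11.5.

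The members and the receptor, ligand and marker lists were chosen with earlier results of these data known, and the scoring rule for classes was set after seeing the data. All 10 members are named, from the lists the genes past 2-fold in the whole library or a class (1 list gene is not reported here), and for each member the 2 genes of highest correlation. Alternatives covered the gene and mitochondrial limits, the class rule, clusters, doublets, averaging, scaling, added CPM, minimum UMIs, background, the cell with the most UMIs, the fold and the thinning depth. Genome coordinates other than those of gene models and RefSeq upstream windows were not used here.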

Additional observations from a re-analysis of the deposited data

Results flagged for a closer look

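Ccl2 differed from sham in opposite directions between days and between classes. Its whole-library ratio was 3.525 at day 1 and 0.3814 at day 7. At day 1 it was 3.1637 in microglia-like and 0.7501 in macrophage-like cells, and at day 3 it was 2.1268 and 0.5532. The difference between these ratios was not tested, because each group is 1 library.

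Ccl7 had a whole-library ratio of 1.6378 at day 1 and 0.2561 at day 7, on opposite sides of sham, and this difference was not tested either. Ccl12 at day 1 stood at 1.4718 in microglia-like and 0.2904 in macrophage-like cells, again not tested.

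Cells above the limit of 3000 genes, which the comparisons left out, also held the 10 genes. Their summed level was 60.6 CPM in sham, 860.903 at day 1, 386.946 at day 3 and 127.145 at day 7, so all 3 tMCAO libraries were above sham there. Microglia-like cells above the limit numbered 1 in sham and 137 at day 1, and at day 1 their summed level was 10596 CPM against 13008 CPM in the kept microglia-like cells.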

How the results depend on the processing

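Each alternative changed 1 choice, except that taking all deposited cells dropped the gene and mitochondrial limits together. Of 216 recomputed counts of members, 169 stayed within 1.5 times the value reported. Of 1122 log2 ratios, 755 were counted as moving by less than their counting interval. These 755 include the 72 values for a minimum of 100 UMIs, which leaves a log2 ratio unchanged. Ratios with 0 UMIs in both libraries have no counting interval and could not be judged this way. So the 755 does not show how many ratios the alternatives moved. For the 22 ratios past 2-fold, 279 of 282 values kept their sign and 255 stayed past 2-fold. With a limit of 6000 genes per cell the members at least 2-fold higher were 5 in the whole library at day 1 and 1 at day 7 (Ccl5), 4 in endothelial-like cells at day 1 and 2 in mural-like cells at day 3; all deposited cells gave the same 5, 1, 4 and 2. A mitochondrial limit of 5% gave 1 in the whole library at day 3, 0 in microglia-like cells at day 3 and 1 in mural-like cells at day 7. In microglia-like cells at day 1 the stricter marker rule, clusters, leaving out doublets and rescaling to the median gene each gave 2, the mean over cells 4, leaving out the cell with the most UMIs 3, and a fold of 1.5 gave 3. At day 3 in these cells clusters gave 2, a fold of 1.5 gave 3, and 50 CPM added or a fold of 3 gave 0. The mean over cells gave 1 in the whole library at day 3, 2 in endothelial-like and 2 in mural-like cells at day 1. With 1 CPM added the whole library gave 5, 4 and 1 at days 1, 3 and 7, endothelial-like cells 6, 5 and 2, and mural-like cells 5 at day 3 and 1 at day 7. With 50 CPM added the whole library gave 1 at day 3, endothelial-like cells 0 at day 1, and mural-like cells 1 and 0 at days 1 and 3. A minimum of 100 UMIs gave 3 in mural-like cells at day 1. A fold of 1.5 gave 6 and 1 in the whole library at days 1 and 7, 4 and 1 in endothelial-like cells at days 1 and 3, and 2 in mural-like cells at day 3. A fold of 3 gave 1 and 0 in the whole library and 2 and 0 in mural-like cells at days 1 and 3. The log2 ratio of Ccl5 turned to 0.30 in macrophage-like cells at day 1 with clusters, and to 0.42 at day 1 and 0.24 at day 7 in microglia-like cells without the cell with the most UMIs; in these 2 the sham level rests on that cell. For the other values the cause was not tested.

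No paired analysis was possible because each group has 1 library, and for the same reason no replicate was left out. The marker rule and the subtraction of the oligodendrocyte-like level were not applied to the whole library, which has no classes. Many stromal and neutrophil-like values rest on fewer than 20 UMIs from few cells, and the depth limits their precision.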
